A study of Mus musculus with 17 samples.

Results

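The genes of small and inducible heat shock proteins described here were Hspb1, Hspb2, Hspb6, Hspb8, Cryab, Hspa1a, Hspa1b, Dnajb1, Hsph1 and Hsp90aa1. These 10 genes, out of 55450 in the bulk expression table and 35849 in the single-cell tables, were selected on their measured TPM and single-cell counts in these same libraries, so their levels are given as a description and carry no test. The libraries came from cell lines that mouse mammary tumors of the MMTV-PyMT model, and the metastases they seeded, gave rise to in culture. In this model the MMTV promoter drives the polyoma middle T oncogene in mammary epithelium, so every line carried the same transgene. Cells were taken from 10 female FVB/NJ mice aged 10 to 12 weeks, enriched for 1 month in medium with 5% serum and sorted for high EpCAM, a surface protein of epithelial cells, and for CD44, an adhesion receptor for hyaluronan. The 7 bulk groups held 2 libraries each. The primary tumor of the mammary fat pad (MFP) carried no CD44 label, and the lines from lymph node (LN), from bone marrow (BM) and from lung were each split into CD44low and CD44high. The 2 replicates of a group were separate clonal isolates from different mice, so each group rests on 2 clones. The 3 single-cell libraries were 1 of lung CD44low, 1 of lung CD44high and 1 of LN CD44high cells. The study describes replicate clonal isolates for each. Both lung tables are labelled as replicate 1, and the LN table carries no replicate number.

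Heat shock proteins keep other proteins folded. The small heat shock proteins share an alpha-crystallin domain, work without ATP and hold unfolding proteins until other chaperones take them over. HSP70 proteins such as those of Hspa1a and Hspa1b refold proteins with ATP, J-domain proteins such as Dnajb1 hand them their clients, HSP110 proteins such as Hsph1 exchange their nucleotide, and HSP90 acts late on kinases and steroid receptors. Under heat or proteotoxic stress the heat shock factor HSF1 binds inverted repeats of the bases GAA, the heat shock element, in front of the inducible members. In muscle several small heat shock proteins are made without stress, and Cryab is also made by normal and malignant breast epithelium.

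Promoters bear on genes named for their induction, so the 150 bases before the start of 5 members are shown. The sequences are from the RefSeq promoter table (GRCm38.p6), which held 10 promoters for 7 of the 10 members and none for Hspb2, Cryab and Hsp90aa1. Capitals mark a pair of heat shock units, GAANNTTC or TTCNNGAA, where N is any base. They lie at chr5:135887769-135887918 on the plus strand for Hspb1, and on the minus strand at chr5:116422865-116423014 for Hspb8, chr5:149636337-149636486 for the first of 2 starts of Hsph1, chr17:34972157-34972306 for Hspa1a and chr17:34959239-34959388 for Hspa1b.
Hspb1: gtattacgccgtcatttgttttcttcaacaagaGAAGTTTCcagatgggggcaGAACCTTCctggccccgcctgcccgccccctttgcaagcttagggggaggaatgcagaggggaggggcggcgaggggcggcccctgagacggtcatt
Hspb8: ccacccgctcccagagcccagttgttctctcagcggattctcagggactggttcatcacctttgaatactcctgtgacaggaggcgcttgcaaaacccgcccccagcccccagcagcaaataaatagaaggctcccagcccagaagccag
Hsph1: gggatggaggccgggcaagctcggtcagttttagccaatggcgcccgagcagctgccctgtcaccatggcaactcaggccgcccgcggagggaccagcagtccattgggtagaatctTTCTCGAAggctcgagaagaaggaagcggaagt
Hspa1a: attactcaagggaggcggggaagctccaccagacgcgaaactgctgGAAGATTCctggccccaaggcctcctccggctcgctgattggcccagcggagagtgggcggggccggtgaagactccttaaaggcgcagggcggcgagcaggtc
Hspa1b: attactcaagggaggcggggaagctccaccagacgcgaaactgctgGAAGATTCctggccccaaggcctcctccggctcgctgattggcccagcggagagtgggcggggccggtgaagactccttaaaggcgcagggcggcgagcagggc

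Both strands were read in windows from 250 bases before to 50 bases after each start. Either pair of units lay before the start in 6 of the 10 promoters, which belong to 5 of the 7 members (Hspb1, Hspb6 at the second of its 2 starts only, Hspa1a, Hspa1b and Hsph1), and in 12.8% of the 32851 promoters of the table. The Hspb1 promoter held 2 such pairs, 117 and 97 bases before the start. The windows shown for Hspa1a and Hspa1b were identical at 149 of 150 bases, with the pair 104 bases before the start in each. In Hspb8 the only pair began at base 3 after the start, and the Dnajb1 windows held none. Hsph1 had a pair 33 bases before its first start and a run of 3 units after it, and a run of 3 units, starting from either GAA or TTC, lay somewhere in 0.603% of all windows. These matches are of letters in a window, and binding was not measured.

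The labelled cell type was checked against marker genes before the members were read. In MFP the 8 epithelial markers summed to 6714 to 7583 TPM, a level corrected for gene length and library depth, and in the LN and BM lines to 2185 to 4434 TPM. In the lung CD44low lines they summed to 1.74 to 2.36 TPM, with 5 of 8 listed at 0 in both libraries, Epcam, Cdh1 and Krt8 among them. In the lung CD44high lines they summed to 15.8 to 87.6 TPM, and Epcam stood at 0.23 and 0.86 TPM. The label of high EpCAM therefore went against the RNA in the 4 lung libraries. Fibroblast markers, 8 of 8 of which reached 1 TPM in the lung CD44low lines, summed there to 4708 to 5117 TPM, to 85.7 to 195 TPM in lung CD44high and to at most 19.9 TPM elsewhere. Smooth muscle markers summed to 931 to 1002 TPM in lung CD44low and to at most 15.8 TPM elsewhere. The 10 immediate early genes, which mark handling stress as well as growth signals, summed to 2849 to 3851 TPM in lung CD44low, 1173 to 2209 TPM in lung CD44high, 929 to 1041 TPM in MFP and 359 to 735 TPM in the LN and BM lines. Cycling markers summed to 36.3 to 38.5 TPM in lung CD44low, 3.87 to 59.6 TPM in lung CD44high, 726 to 817 TPM in MFP and 489 to 5069 TPM in the LN and BM lines. Macrophage markers reached at most 39.2 TPM and endothelial markers at most 0.21 TPM. The part of these marker sums in the results below was not tested, and in bulk RNA fewer cells of a type and less RNA per cell cannot be told apart.

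**Figure D1:**
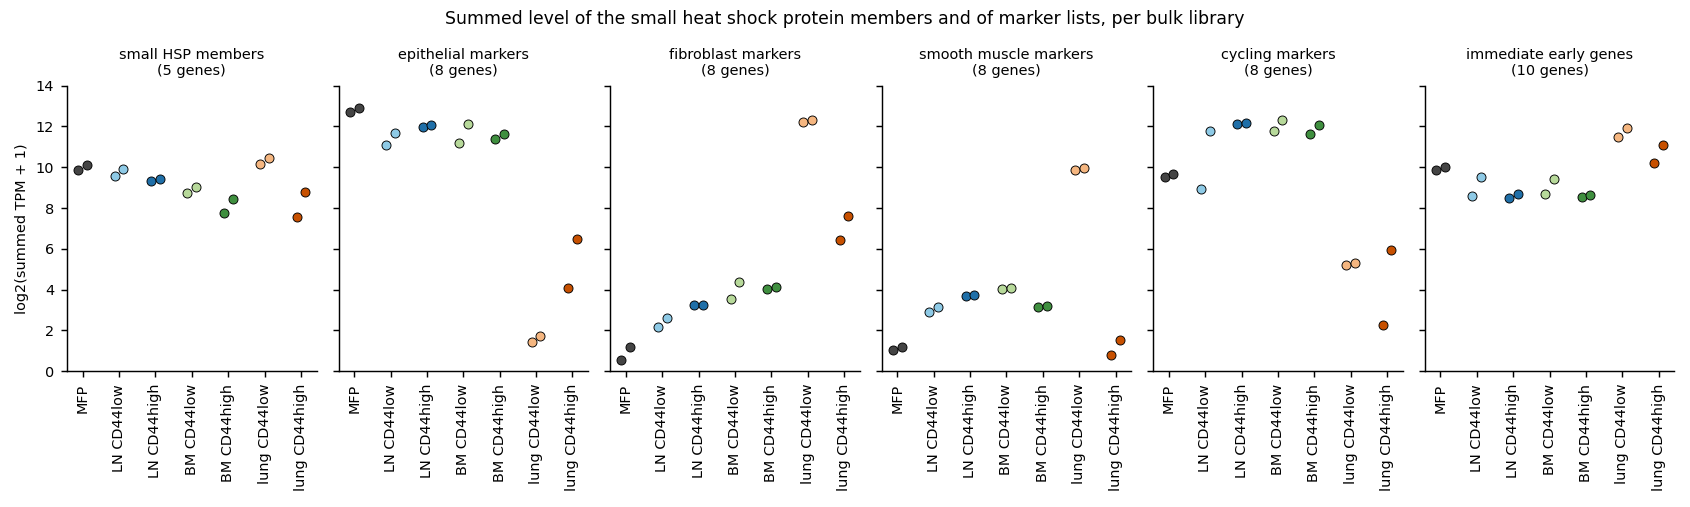
Log2(summed TPM + 1) of the 5 small heat shock members and of 5 marker lists in each of the 14 bulk libraries, by group, with 1 point per library ordered by value within its group. The lung CD44low libraries have the lowest epithelial sums, 1.74 to 2.36 TPM, and the highest fibroblast and smooth muscle sums, while their small heat shock sums are the highest of the 7 groups.

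Hspb1, the mouse HSP25 and an actin-binding small heat shock protein (chr5:135887919-135889563, plus strand, 3 exons), stood above 1 TPM in 2 of the 7 groups. It stood at 652 and 458 TPM in lung CD44low and at 519 and 535 TPM in MFP. It was listed at 0.85 and 0.06 TPM in BM CD44low and at 0.26 and 0 TPM in LN CD44high. It was listed at 0 in both libraries of LN CD44low, BM CD44high and lung CD44high. The lung CD44low and MFP libraries overlapped (difference on the log2(TPM + 1) scale 0.05 ± 0.31, SE), although these groups lay at opposite ends of the epithelial, fibroblast and smooth muscle sums. Of the 50-base stretches in Hspb1 transcripts, 48.8% were also found in the pseudogene Hsp25-ps1, which was listed at 0 to 11.1 TPM. Hspb1 varied more over the 14 libraries than 99.9% of the 15348 genes tested.

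Hspb8, the HSP22 that works with the exchange factor Bag3 in the removal of damaged proteins (chr5:116408491-116422864, minus strand, 3 exons), formed a graded series over the 7 groups. It stood at 267 and 248 TPM in lung CD44low, 245 and 112 TPM in LN CD44low, and 80.4 and 78.2 TPM in LN CD44high. It stood at 33.6 and 27.8 TPM in BM CD44low and at 19.3 and 22.8 TPM in BM CD44high. MFP had 2.47 and 4.53 TPM and lung CD44high 0.4 and 1.52 TPM. No neighbours in this order overlapped, and in LN, BM and lung both CD44low libraries lay above both CD44high libraries. Against MFP the log2(TPM + 1) difference was 5.88 in lung CD44low, 5.25 in LN CD44low, 4.2 in LN CD44high, 2.85 in BM CD44low, 2.33 in BM CD44high and -1.22 in lung CD44high, each with an SE of 0.39. Between the lung lines the difference of CD44high to CD44low was -7.10. The LN CD44low libraries, which differed most in TPM within a group, also differed in the sum of cycling markers, 3516 TPM in replicate 1 and 489 TPM in replicate 2. The part of that difference was not tested. Hspb8 shared no 50-base stretch with another gene.

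Hspb6, the HSP20 of muscle (chr7:30552178-30555443, plus strand, 3 exons), was lowest in the primary tumor. MFP had 7.34 and 9.31 TPM, and every one of the 12 other libraries had between 19.1 and 40.5 TPM. The highest group was lung CD44high at 38.5 and 40.5 TPM, followed without overlap by LN CD44high at 34.8 and 31.2 TPM. BM CD44low at 35.3 and 27.2 TPM, LN CD44low at 35.0 and 27.3 TPM, BM CD44high at 30.1 and 31.4 TPM and lung CD44low at 30.7 and 19.1 TPM each overlapped with the group before it. Against MFP the log2(TPM + 1) differences ran from 1.45 in lung CD44low to 2.13 in lung CD44high, each ± 0.26 (SE). The order of the upper groups depended on the scaling, since with median-ratio scaling the difference was 2.37 in LN CD44high, 2.30 in BM CD44high and 2.25 in lung CD44high. Hspb6 thus lay above MFP in both lung groups, which stood at opposite ends for Hspb8. Of the Hspb6 exon bases, 3.35% are shared with Gm38670 on the same strand and 5.31% with Proser3 on the opposite strand. Gm38670 was listed at 30.6 TPM in lung CD44high replicate 1, with a median of 0 over the 14 libraries. The part of this overlap in the Hspb6 values was not tested.

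Cryab, alpha B-crystallin, and Hspb2, a partner of the small heat shock proteins of muscle, are neighbours read in opposite directions (Cryab chr9:50751325-50756636, plus strand, 4 exons, and Hspb2 chr9:50751078-50752354, minus strand, 2 exons). Their exons share 252 bases, 30.2% of those of Hspb2 and 17.0% of those of Cryab, and the bulk library kit does not mark strand, so reads in the overlap cannot be assigned to either gene by strand. Cryab stood at 661 and 561 TPM in LN CD44low, 496 and 550 TPM in LN CD44high, 390 and 522 TPM in the MFP group and 451 and 409 TPM in lung CD44low. It stood at 414 and 341 TPM in BM CD44low, 145 and 394 TPM in lung CD44high and 139 and 266 TPM in BM CD44high. LN CD44low and LN CD44high did not overlap, and from there downward every group overlapped with the next. The log2(TPM + 1) difference to MFP was -1.23 ± 0.43 (SE) in BM CD44high and -0.91 in lung CD44high, and with median-ratio scaling it was -0.66 and -0.76. Cryab was therefore high in lines of all organs, unlike Hspb1 and Hspb8.

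Hspb2 stood at 24.3 and 49.8 TPM in LN CD44low, 34.2 and 33.6 TPM in BM CD44low, 31.6 and 25.1 TPM in LN CD44high and 25.9 and 30.02 TPM in BM CD44high. It stood at 10.7 and 24.97 TPM in the MFP group, 13.7 and 9.19 TPM in lung CD44low and 3.26 and 7.27 TPM in lung CD44high. BM CD44low and LN CD44high did not overlap, nor did BM CD44high and MFP. The lung CD44high libraries lay below all others, with a log2(TPM + 1) difference to MFP of -1.56 ± 0.46 (SE). Hspb2 and Cryab did not share an order. In lung CD44low Cryab was within the range of MFP, and one of the 2 Hspb2 values was below it. Summed TPM of the 5 small heat shock members was 1414 and 1143 in lung CD44low, 930 and 1096 in MFP and 188 and 443 in lung CD44high.

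**Figure D2:**
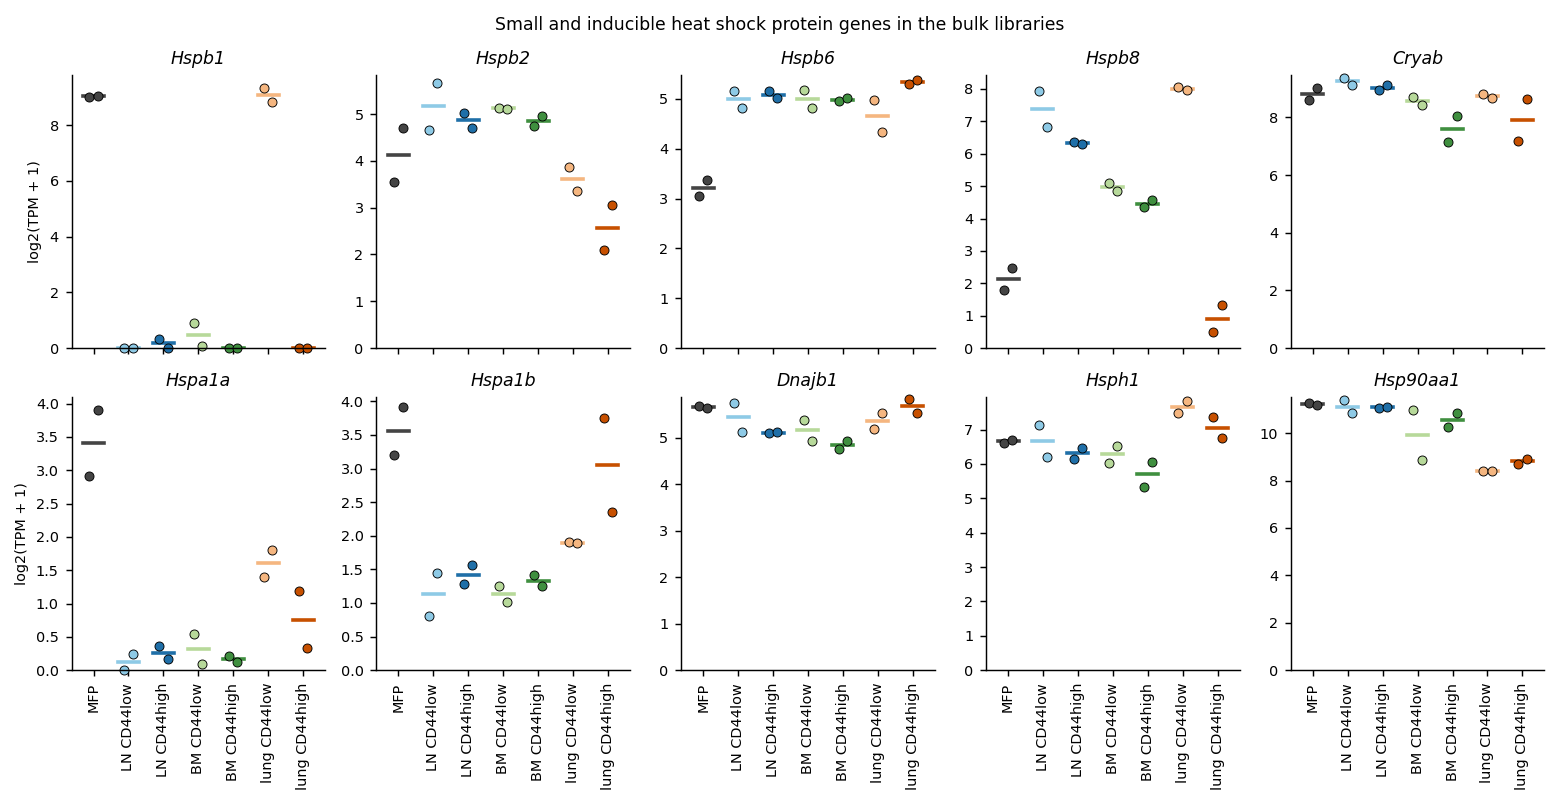
Log2(TPM + 1) of each of the 10 genes in the 7 bulk groups, with 1 point per library and a bar at the group mean, and a y axis that starts at 0 and has its own range in each panel. Hspb1 is near 0 outside MFP and lung CD44low, Hspb8 runs from 267 TPM in lung CD44low to 0.4 TPM in lung CD44high, and Dnajb1 stays between 26 and 55.9 TPM.

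Hspa1a (chr17:34969190-34972156) and Hspa1b (chr17:34956436-34959238), the stress-inducible cytosolic HSP70 genes, each with 1 exon on the minus strand, were at low levels in all groups. Their sequences are close to identical, with 58.8% of the 50-base stretches of Hspa1a also found in Hspa1b and 62.3% the other way, so the split of reads between them is uncertain. Exons of Gm20481 on the opposite strand also share 19.0% of the Hspa1a exon bases. Hspa1a stood at 6.54 and 14.01 TPM in the MFP group, 1.63 and 2.5 TPM in lung CD44low, 1.27 and 0.26 TPM in lung CD44high and at most 0.46 TPM in the LN and BM libraries. Neither MFP and lung CD44low nor the lung groups overlapped for Hspa1a. Hspa1b stood at 8.2 and 14.1 TPM in the MFP group, 12.4 and 4.1 TPM in lung CD44high, 2.76 and 2.7 TPM in lung CD44low and between 0.75 and 1.96 TPM in the LN and BM libraries. For the sum of both genes MFP had 14.7 and 28.1 TPM, lung CD44high 13.7 and 4.36 TPM, lung CD44low 4.39 and 5.2 TPM and no LN or BM library more than 2.08 TPM. MFP was thus the highest group for the sum, without overlap. The lung groups overlapped, since 1 lung CD44high library lay above and the other just below both lung CD44low libraries. Against MFP the log2(TPM + 1) difference of lung CD44low was -1.81 ± 0.37 (SE) for Hspa1a and -1.66 ± 0.45 for Hspa1b.

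Dnajb1, the inducible HSP40 that works with these HSP70 proteins (chr8:83608193-83612653, plus strand, 3 exons), varied least. It stood at 55.9 and 45.5 TPM in lung CD44high, 50.1 and 48.8 TPM in the MFP group, 52.5 and 34.0 TPM in LN CD44low and 35.6 and 45.2 TPM in lung CD44low. It stood at 40.7 and 29.5 TPM in BM CD44low, 33.2 and 34.0 TPM in LN CD44high and 26 and 29.4 TPM in BM CD44high. LN CD44high and BM CD44high did not overlap, whereas all other neighbours in this order did. Only 6.47% of the genes tested had a smaller SD over the 14 libraries. The Hspa1a and Hspa1b levels therefore differed between groups in which Dnajb1 differed little.

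Hsph1, the inducible HSP110 (chr5:149614287-149636376, minus strand, 19 exons), was highest in lung CD44low at 180 and 227 TPM. It followed at 163 and 108 TPM in lung CD44high, 140 and 71.9 TPM in LN CD44low, 97.2 and 103 TPM in the MFP group, 69.3 and 87.9 TPM in LN CD44high, 64.8 and 90.6 TPM in BM CD44low and 39.2 and 66.2 TPM in BM CD44high. Lung CD44low and lung CD44high did not overlap, nor did MFP and LN CD44high, whereas the other neighbours did. Against MFP the log2(TPM + 1) difference of lung CD44low was 1.0 ± 0.37 (SE).

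Hsp90aa1, the inducible cytosolic HSP90 (chr12:110690605-110702728, minus strand, 11 exons), was the most abundant of the 10 genes in MFP, LN and BM and went the other way from Hsph1 in the lung lines. It stood at 2458 and 2356 TPM in the MFP group, 2690 and 1851 TPM in LN CD44low, 2154 and 2191 TPM in LN CD44high and 1209 and 1871 TPM in BM CD44high. It stood at 2044 and 470 TPM in BM CD44low, 412 and 486 TPM in lung CD44high and 339 and 340 TPM in lung CD44low. The lung lines did not overlap with each other and lay below all LN, BM CD44high and MFP libraries, with log2(TPM + 1) differences to MFP of -2.82 ± 0.54 (SE) in lung CD44low and -2.43 in lung CD44high. In BM CD44low replicate 2 stood apart from replicate 1 in other chaperones too, with 999 against 2641 TPM for Hspa8 and 25.4 against 3.33 TPM for Hsf2. Without that library the BM CD44low difference to MFP moved from -1.29 to -0.24, and that of BM CD44high to BM CD44low from 0.62 to -0.44. Of the 50-base stretches of Hsp90aa1, 41.8% were also found in the copy Gm12346 and 29.9% in Gm5844, and Gm12346 was listed at 1.72 to 13.1 TPM.

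For each member the genes with the closest pattern were found as those with the smallest root mean square difference of centred log2(TPM + 1) over the 14 libraries. Hspb1 lay nearest to Cdkn2b, a cyclin-dependent kinase inhibitor (1.34), and Gng11 (1.71), and Hspb8 to Scara3 (0.97) and Procr, the endothelial protein C receptor (1.17). Such distances grow with the spread of the member itself over the libraries, which of the 10 genes was largest in Hspb1 and Hspb8. Dnajb1 lay nearest to Cnot2 and Msl3 (0.15 each), Hsph1 to Pml and Pdpk1 (0.24 each), Hspb6 to Snx17 and Aldh2 (0.31 each), and Hsp90aa1 to Ppp1r8 (0.36) and the proteasome subunit Psmb4 (0.37). Cryab lay nearest to Mrpl34 (0.43) and Ergic2 (0.44), and Hspb2 to Gm45351 (0.38) and 2610001J05Rik (0.40). Hspa1a lay nearest to 1700013F07Rik (0.39) and 9130019O22Rik (0.40), and Hspa1b to Ccdc103 (0.32) and Slc18a1 (0.36). No member was among the nearest 2 genes of another.

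In single cells the same 10 genes were read as summed counts per 10000, in 348 lung CD44low, 1236 lung CD44high and 2562 LN CD44high cells with over 250 genes and under 10% mitochondrial counts. With 1 library per group there is no test, and the intervals are exact 95% Poisson intervals that cover counting error only. Hspb1 was at 1.49 per 10000 (1.33 to 1.66, 330 counts) in lung CD44low, and at 0 counts in both other libraries. A nominal limit of 3 counts equals 0.0136 per 10000 in lung CD44high and 0.00567 in LN CD44high. The exact upper 95% limits for 0 counts were higher, at 0.0167 and 0.00698. The lung CD44low level was 109 times the 3-count limit of lung CD44high and 262 times that of LN CD44high. These ratios cover counting error only and are not exact lower bounds. The presence in lung CD44low and the zero in lung CD44high were thus seen in both kinds of library. In lung CD44low barcodes with 250 genes or fewer, Hspb1 was at 4.82 per 10000 (363 counts), above its level in the kept cells. Over all barcodes it was at 2.32, and as a mean of per-cell values 2.71 per 10000. A share of cells with Hspb1 is therefore not read as the share that expresses it. With each cell thinned to 500 counts it was 7.96% (5.22 to 11.5), and 34.8% before thinning.

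Hspb8 was at 3.15 per 10000 in LN CD44high, 0.707 in lung CD44low and 0 counts in lung CD44high. Its level in LN CD44high was 4.46 times (3.79 to 5.29) that in lung CD44low, and 232 times the 3-count limit of lung CD44high. In the bulk libraries the first pair stood the other way, with 267 and 248 TPM in lung CD44low against 80.4 and 78.2 TPM in LN CD44high. Cryab was at 8.65 per 10000 in LN CD44high, 2.23 in lung CD44low and 1.70 in lung CD44high. Hspb6 was at 1.63 in lung CD44low, 0.486 in LN CD44high and 0.317 in lung CD44high, so lung CD44low had 5.16 times (3.99 to 6.77) the level of lung CD44high, whereas in bulk both lung CD44high libraries had the higher Hspb6 values. Hspb2 stayed at or below 0.182 per 10000 in all 3 libraries.

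Among the inducible members, Hsp90aa1 was again the most abundant, at 15.9 per 10000 in LN CD44high, 12.1 in lung CD44high and 9.49 in lung CD44low. Its lung CD44low level was 0.784 of that in lung CD44high. Hsph1 was at 4.55 in LN CD44high, 2.79 in lung CD44low and 1.03 in lung CD44high, so that LN CD44high had 1.63 times the level of lung CD44low, whereas in bulk lung CD44low had the higher values. Hspa1b was at 0.856 in lung CD44low, 0.760 in LN CD44high and 0.204 in lung CD44high, and as a mean of per-cell values at 0.388 in LN CD44high. The lung CD44low level of Hspa1b was 4.2 times (3.02 to 5.95) that of lung CD44high, the opposite of the order in bulk. That bulk order rests on the uncertain split of reads between Hspa1a and Hspa1b, and for their sum the lung groups overlapped. Hspa1a reached 0.144 per 10000 in lung CD44low, 3 counts in lung CD44high and 0 counts in LN CD44high. Dnajb1 was at 0.662, 0.561 and 0.677 per 10000 in lung CD44low, lung CD44high and LN CD44high, and the ratio of the lung libraries was 1.18 (0.923 to 1.51). The bulk and single-cell values came from different protocols and quantification, and the differences in order were not tested.

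Depth and markers differed between the single-cell libraries. The kept lung CD44low cells had a median of 4011 counts, against 557 in lung CD44high and 585 in LN CD44high. Smooth muscle markers were at 71.4 per 10000 in lung CD44low and at most 0.148 in the other libraries, fibroblast markers at 21.4 and at most 0.267. Epithelial markers were at 0.878 in lung CD44low, 4.27 in lung CD44high and 9.18 in LN CD44high. At 500 counts per cell, Cryab was seen in 35.1% of LN CD44high, 11.8% of lung CD44low and 4.75% of lung CD44high cells. Hsph1 was seen in 15.9%, 12.7% and 3.27% of them in the same order. The part of the depth and the markers in these levels was not tested.

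**Figure D3:**
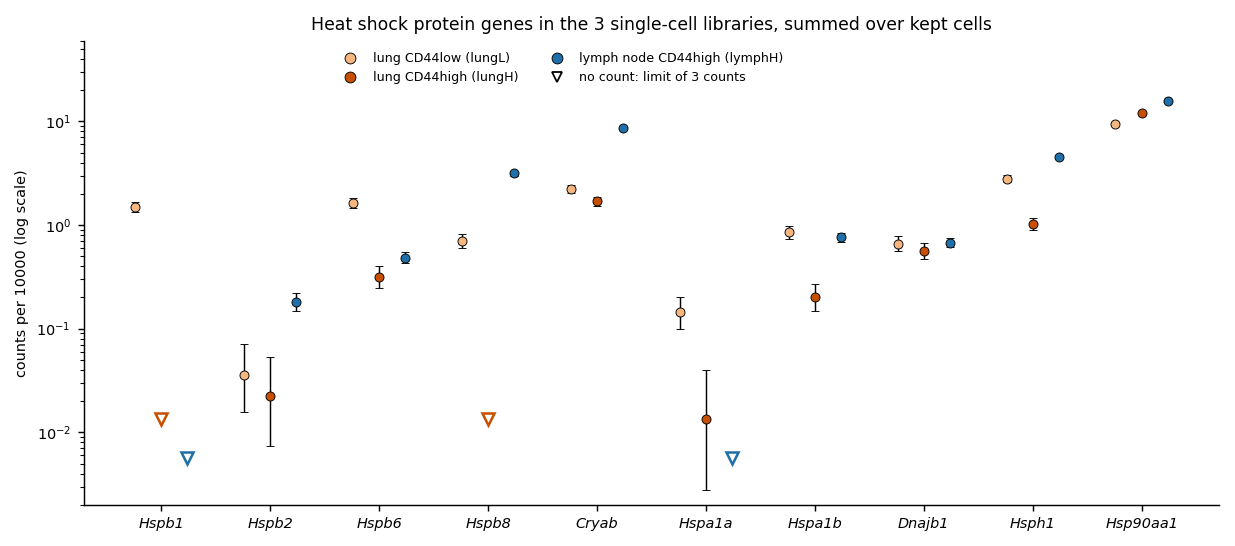
Summed counts per 10000 of the 10 genes in the 3 single-cell libraries, on a log axis, with exact 95% Poisson intervals and open triangles at the limit of 3 counts where no count was seen. Hspb1 is seen in lung CD44low alone, at 1.49 per 10000, and Hspb8 is absent from the counts of lung CD44high.

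The other genes of the heat shock and chaperone network were tested, since they were not used to select the 10 genes. Their lists were nevertheless drawn up with earlier results of these data known. Of 81 such genes in 9 lists, 75 reached 1 TPM in at least 2 libraries and were compared by limma on log2(TPM + 1), a gene passing at a Benjamini-Hochberg adjusted p below 0.05 over all 15348 genes tested. The 6 left out, Hsf5, Hspb3, Hspb7, Hspb9, Cryaa and Hspa1l, reached at most 0.42 TPM. The 6 comparisons with MFP share its 2 libraries. In the comparison of lung CD44low with MFP, 15 of 75 were higher and 25 lower (20% and 33.3%), against 21.9% and 23.1% of all genes tested. The median log2 difference was -0.24 over the 75 genes and 0 over all genes. Without lung CD44low replicate 1 the 40 calls became 22.

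Of all genes tested, 23.1% were lower and 21.9% higher in lung CD44low than in MFP. Beside these shares, subunits of the CCT chaperonin, which folds actin and tubulin, were lower in 7 of 8 cases. They ran from Cct6a (-1.77 on the log2 scale, 118 and 142 TPM against 460 and 428 TPM) to Cct4 (-0.56), and only Cct2 did not pass (-0.67, adjusted p = 0.0516). Of 11 HSP90 genes and co-chaperones 7 were lower, led by the immunophilin Fkbp4 (-2.19 ± 0.38, SE, adjusted p = 0.00114), and with Hsp90ab1, the constitutive partner of Hsp90aa1, at -0.76 (adjusted p = 0.00651), which did not pass with median-ratio scaling. None of the 11 was higher. Of 9 mitochondrial genes 3 were lower, among them the chaperonin Hspd1 (-1.18, adjusted p = 0.00562). The list of HSP70 exchange factors and quality control genes was split, with 4 of 9 higher and 3 lower. Bag1 was at 139 and 144 TPM against 15.2 and 13.2 TPM (3.24, adjusted p = 0.0154), and Bag3, the partner of Hspb8, was at 86.4 and 88.9 TPM against 26.8 and 22.5 TPM (1.80, adjusted p = 0.0313). With no filter on low TPM, Bag3 did not pass. Hspbp1, an HSP70-binding protein, was at 24.3 and 20.4 TPM against 140 and 128 TPM (-2.53, adjusted p = 6.84e-05).

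Among J-domain proteins 3 of 10 were higher and 2 lower, beside 21.9% and 23.1% of all genes tested. Dnaja4 was at 17.5 and 21.7 TPM against 1.28 and 0.71 TPM (3.38, adjusted p = 2.18e-05). Cytosolic HSP70 and HSP110 genes were 2 higher and 2 lower of 8, with Hspa4l, an HSP110 relative of Hsph1, at 12.7 and 12.3 TPM against 54.9 and 64.9 TPM (-2.17, adjusted p = 3.16e-05). Of 14 endoplasmic reticulum chaperones 4 were higher and 1 lower. Of 5 heat shock factors and regulators 2 were higher, among them Ier5, which promotes the activity of HSF1 (2.84, adjusted p = 0.00671). The factor Hsf1 itself, the constitutive HSP70 gene Hspa8 and the reticulum chaperone Hspa5 passed in none of the 9 comparisons. The nearest of them was Hsf1 in BM CD44high against MFP, at -1.06 (adjusted p = 0.0523).

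**Figure D4:**
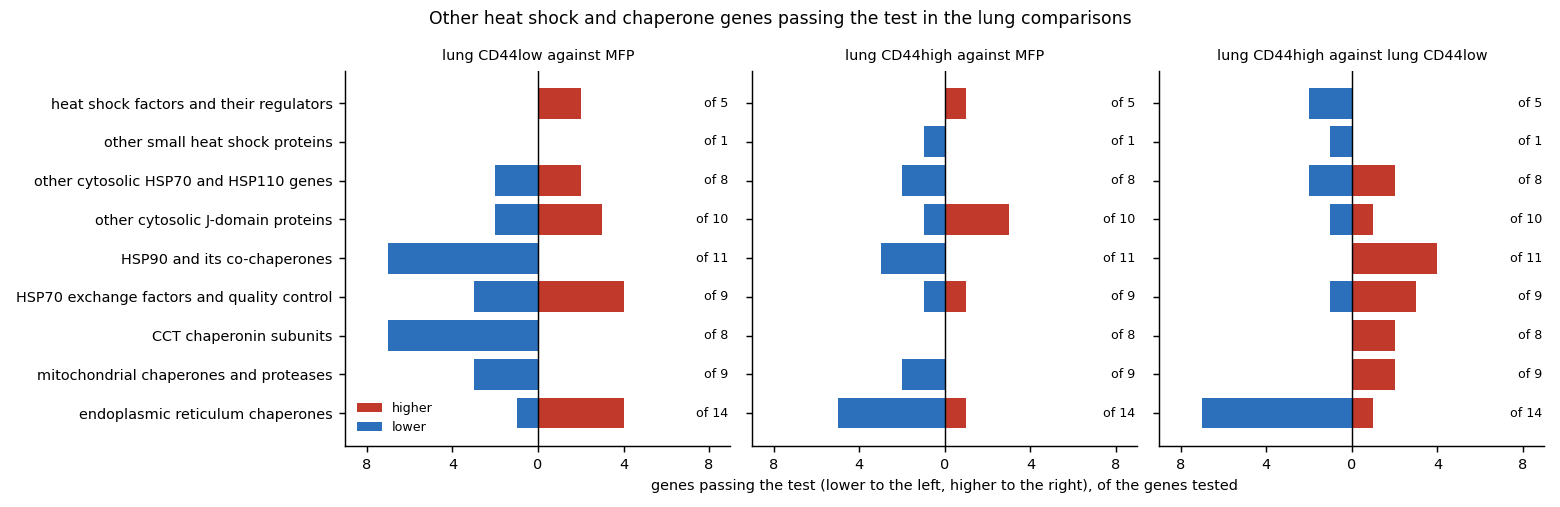
Number of the 75 other heat shock and chaperone genes that passed the test in the 3 lung comparisons, by list, with lower genes as bars to the left of 0 and higher genes as bars to the right, and the number tested at the right edge. In lung CD44low against MFP, 7 of 8 CCT subunits and 7 of 11 HSP90 genes and co-chaperones were lower and none was higher. Of all genes tested, 23.1% were lower and 21.9% higher in that comparison.

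In lung CD44high against MFP 6 of 75 were higher and 15 lower, against 14.9% and 21.2% of all genes tested. The median was -0.21 over the 75 genes and -0.04 over all genes, and without lung CD44high replicate 1 the 21 calls became 7. Endoplasmic reticulum chaperones held 5 of the lower genes, with the lectin chaperone Calr at 182 and 188 TPM against 490 and 580 TPM (-1.52, adjusted p = 0.000496) and Manf at -1.71 (adjusted p = 0.00126), and 1 of the higher, Dnajb9 (1.56, adjusted p = 0.00178). The largest higher value was that of Bag6, a quality control factor, at 225 and 127 TPM against 19.7 and 14.2 TPM (3.27, adjusted p = 0.0021), followed by the heat shock factor Hsf2 (2.12, adjusted p = 0.0379), which did not pass in 10 of the 14 fits that left out 1 library. Dnajc2, a ribosome-bound J-domain protein, was at -1.83 (adjusted p = 0.00227) and Hspd1 at -0.85 (adjusted p = 0.0325), which did not pass with that scaling. No CCT subunit passed.

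Lung CD44high against lung CD44low gave 15 of 75 higher and 14 lower, against 12.2% and 18.5% of all genes tested, with a median of 0.15 over the 75 genes and -0.01 over all genes. Without lung CD44low replicate 1 the 29 calls became 11. Of the HSP90 list 4 of 11 were higher and none lower, with Hsp90ab1 at 2974 and 3197 TPM against 1473 and 1408 TPM (1.10, adjusted p = 0.00122) and Fkbp4 at 1.60 (adjusted p = 0.0102). The HSP110 relatives Hspa4l (1.81, adjusted p = 0.000182) and Hspa4 (1.71, adjusted p = 0.00992) were also higher in lung CD44high, where Hsph1 was lower. With only the 2 groups compared, Hsp90ab1 and Hspa4 did not pass. Of 14 reticulum chaperones 7 were lower and 1 was higher. Bag1 was at 4.67 and 5.07 TPM against 139 and 144 TPM (-4.60, adjusted p = 0.00386), Ier5 at -2.62 (adjusted p = 0.0152), and Hspa12b at 0.07 and 0 TPM against 5 and 6.18 TPM (adjusted p = 5.52e-07). The lung groups differed also in the fibroblast, smooth muscle and epithelial sums given above, and the part of these was not tested.

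In the LN and BM lines fewer genes of the network passed, and most of those were lower than in MFP, a split that moved with the scaling of the values, as given further on. LN CD44low had 1 higher and 4 lower, against 4.5% and 9.51% of all genes tested. The higher one was the J-domain gene Dnajb4 (1.09, adjusted p = 0.0357), which did not pass in 10 of the 14 fits that left out 1 library or with only the 2 groups compared, and the lower ones included Sdf2l1 (-0.95, adjusted p = 0.0475), the mitochondrial Dnaja3 (-0.83, adjusted p = 0.0264) and the mitochondrial HSP90 gene Trap1 (-0.78, adjusted p = 0.0449). In the same 14 fits Sdf2l1 did not pass in 9, Dnaja3 in 3 and Trap1 in 12. With the replicate number as a block in the fit, Dnajb4, Sdf2l1 and Trap1 did not pass either. LN CD44high had 0 higher and 10 lower, against 5.87% and 17.9%, led by Hspb11 (-1.44, adjusted p = 0.0163), Bag5 (-1.17, adjusted p = 0.00377) and Dnajc3 (-1.08, adjusted p = 0.0274). BM CD44low had 0 higher and 9 lower, against 9.36% and 13.8%, led by the autophagy receptor Sqstm1 (-1.55, adjusted p = 0.0220), Hspa13 (-1.32, adjusted p = 0.0202) and the HSP90 activator Ahsa1 (-1.14, adjusted p = 0.0188). Without BM CD44low replicate 2 none of these 3 passed, with Sqstm1 at -0.87, Hspa13 at -1.29 and Ahsa1 at -0.90. BM CD44high had 0 higher and 14 lower, against 8.38% and 18.6%. Its largest differences were in Bag3, at 5.62 and 4.5 TPM against 26.8 and 22.5 TPM (-2.08, adjusted p = 0.0263), Chordc1 (-1.30, adjusted p = 0.00397) and Hspa4 (-1.27, adjusted p = 0.0403), and Dnaja1 was at -1.12 (adjusted p = 0.00952).

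The median of all genes moved by over 0.1 in the LN and BM lines with median-ratio scaling of the TPM values, to 0.02, 0.03, 0.12 and 0.05 in LN CD44low, LN CD44high, BM CD44low and BM CD44high. With it the share of all calls that were higher moved from 32.1% to 49.2% in LN CD44low, from 24.7% to 54.7% in LN CD44high, from 40.4% to 58.0% in BM CD44low and from 31.0% to 60.2% in BM CD44high. Of the genes named for these 4 groups, Dnajb4, Hspa13 and Chordc1 passed with that scaling and the others did not. Hspa13 and Chordc1 did not pass with only the 2 groups compared. With the scaling, 1 of the 75 genes was higher and 0 lower in LN CD44low, against 5.55% and 5.73% of all genes tested. The counts were 4 and 0 in LN CD44high, against 9.18% and 7.6%, 1 and 3 in BM CD44low, against 11.5% and 8.35%, and 2 and 2 in BM CD44high, against 12.1% and 8.01%. Medians over the 75 genes as deposited, -0.18, -0.21, -0.23 and -0.35 in these 4 groups, stood beside -0.18, -0.30, -0.04 and -0.34 over all genes. Against MFP the same scaling left 16 higher and 18 lower in lung CD44low, against 24.4% and 20.2% of all genes tested, and 7 higher and 8 lower in lung CD44high, against 16.9% and 18.3%.

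CD44high against CD44low within LN and within BM gave 0 of 75 genes past the test in either direction by limma, while 3 genes in LN and 5 in BM had an unadjusted p below 0.05. Over all genes tested the background was also low, with 0.189% higher and 0.189% lower in LN and 0.0717% higher and 0.0782% lower in BM. The share of higher calls among these moved from 50% to 61.8% in LN and from 47.8% to 64.5% in BM with median-ratio scaling, and still none of the 75 passed. Without BM CD44low replicate 1, 7 of the 75 were higher and 12 lower in BM, a fit in which the remaining library stood alone in its group. Hspb8 had log2(TPM + 1) differences in the direction of CD44low in both organs, as described above, but these have no test.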

How the data were processed

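Bulk RNA was amplified by SMART-seq2 and tagged with Nextera XT, which keeps no strand, and single cells were captured on the ddSeq with 3′ SureCell chemistry. Per the study's methods and the labels, the authors aligned bulk reads to mm10 with STAR and quantified GENCODE M21 genes with RSEM, and they deposited 1 table of TPM for the 14 libraries. The study states a minimum read depth for bulk, but TPM keeps no depth, so that of each library is not given. For single cells the authors deposited raw counts per gene and barcode, made with Ddseeker and kallisto. Versions of these tools are not given in the sources used here. Symbols were taken by gene identifier from the single-cell tables.

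The members and the gene lists were chosen with earlier results of these data known. Members were described without tests. The other heat shock genes were compared with limma 3.58.1 in R 4.3.3 (lmFit, eBayes with trend) on log2(TPM + 1), over the 15348 genes that reached 1 TPM in 2 or more of the 14 libraries, with 7 group means, 7 residual degrees of freedom and Benjamini-Hochberg adjustment over all genes. Such a difference understates changes of low genes. The replicates are separate clonal isolates. The study used edgeR on read counts, and these are not analysed here.

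All members were named, with 8 pathway genes whatever their values (Hsf1, Hsf2, Hspa8, Hsp90ab1, Bag3, Dnaja1, Hspa5 and Hspd1), and per comparison up to 3 largest rises and 3 largest falls among listed genes that passed, and the 2 nearest genes of each member. Genes beyond this rule (the remaining CCT subunits and the genes that set apart the BM CD44low libraries) were named after their values were seen. Single-cell work used Python 3.11.15 with numpy 2.4.6, pandas 2.3.3 and scipy 1.17.1. Of 3623, 2808 and 3297 barcodes in lung CD44high, lung CD44low and LN CD44high, the 4146 kept cells held 2210623, 2220759 and 5287425 counts. Cell columns carry running numbers, so shared barcodes could not be counted, and doublets were not treated. The limma step was tested on simulated data. Alternatives were another pseudocount, filter, scaling, sample set and replicate block, and leaving out each library.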

Additional observations from a re-analysis of the deposited data

Results flagged for a closer look

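The difference of CD44high to CD44low was looked at for the 10 members and the 8 pathway genes named whatever their values, 18 genes in all, and in 2 of them both libraries of an organ moved one way and those of another organ the opposite way. Dnajb1 was higher in both lung CD44high libraries (55.9 and 45.5 TPM against 35.6 and 45.2 TPM in CD44low, log2(TPM + 1) difference 0.32), and lower in both CD44high libraries of LN (33.2 and 34.0 against 52.5 and 34.0 TPM, -0.32) and of BM (26 and 29.4 against 40.7 and 29.5 TPM, -0.32). Hsp90ab1 was higher in lung CD44high (2974 and 3197 against 1473 and 1408 TPM, 1.10) and lower in BM CD44high (2296 and 2595 against 2617 and 2903 TPM, -0.18). In Dnajb1 the closest CD44high and CD44low values of LN and of BM lay nearly level, and with median-ratio scaling the differences were 0.34 in lung, -0.11 in LN and -0.04 in BM. With that scaling Hsp90ab1 stood at 1.12 in lung and at 0.11 in BM, so its opposite directions were lost. These differences between organs were not tested. The share of all genes tested that meets the same rule was not counted, so 2 of 18 is not read as a result about these genes.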

How the results depend on the processing

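No named gene that passed changed direction under an alternative. The number of the 75 genes that passed changed with the scaling, the samples in the fit and single libraries. Median-ratio scaling left 1 in LN CD44low, 4 in LN CD44high, 4 in BM CD44low and 4 in BM CD44high against MFP, where 5, 10, 9 and 14 had passed. With no filter on low TPM, 3 passed in LN CD44low, and with only the 2 groups compared 0 in LN CD44low, 16 in LN CD44high and 0 in BM CD44low. A log2 difference over 2 as well was met by 0 in LN CD44low, 0 in LN CD44high, 0 in BM CD44low, 1 in BM CD44high, 11 in lung CD44low and 2 in lung CD44high against MFP, and by 4 in lung CD44high against CD44low. Of all genes tested it was met by 4.79%, 6.12%, 7.16%, 7.67%, 18.8%, 13.5% and 11.3% in these comparisons, against 14.7% of the 75 genes in lung CD44low. A pseudocount of 0.1 and a minimum of 5 TPM kept all counts within 1.5 times.

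Leaving out each library gave 0 to 7 in LN CD44low, 2 to 21 in LN CD44high, 2 to 25 in BM CD44low, 2 to 20 in BM CD44high, 22 to 48 in lung CD44low and 7 to 31 in lung CD44high against MFP, and 0 to 1 in LN, 0 to 19 in BM and 11 to 38 in lung for CD44high against CD44low. The lowest counts against MFP came without LN CD44low replicate 2 or either MFP library (0), without either LN CD44high library (2), without MFP replicate 1 (2 in both BM groups), without lung CD44low replicate 1 (22) and without lung CD44high replicate 1 (7). The highest counts came without a BM CD44low library, in BM CD44high equally without an LN CD44low library. A group left with 1 library was assumed to vary like the others.

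Same-numbered CD44high and CD44low libraries had correlated deviations of -0.09 in LN, 0.07 in BM and -0.19 in lung, so the values showed no pairing by number. Which libraries came from the same mouse is not given in the sources used here, and these correlations cannot settle it. With the replicate block, 2 genes passed in LN CD44low, 8 in LN CD44high, 8 in BM CD44low, 12 in BM CD44high, 39 in lung CD44low, 18 in lung CD44high and 28 between the lung lines, and with the lung numbers crossed, chosen after seeing the data, 4, 9, 8, 10, 40, 21 and 29. Of the members' 90 log2 differences, 20 moved by more than their SE in the fit with scaling and 22 with a pseudocount of 0.1. Over the fits that left out 1 library, 80 of 1260 such differences moved by more than that SE. Of the 30 single-cell levels, 3 moved beyond their counting interval over all barcodes, 12 as a mean of per-cell values and 4 with more than 500 genes per cell. Taken as a ratio, the largest of these moves were Hspb1 in lung CD44low, from 1.49 to 2.71 per 10000, and Hspa1b in LN CD44high, from 0.760 to 0.388, both as per-cell means. The cause of these changes was not tested.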

Other observations

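In the lung CD44low single-cell library, barcodes with 250 genes or fewer held Hspb1 at 4.82 per 10000 against 1.49 in the kept cells, Hspb8 at 0.731 against 0.707, Hsph1 at 1.38 against 2.79 and Hspa1b at 0.279 against 0.856. Hspb1 was thus higher outside the kept cells, and Hsph1 and Hspa1b inside them. The list of other cytosolic HSP70 and HSP110 genes was higher outside the kept cells in all 3 libraries, at 17.4 against 13.1 per 10000 in lung CD44low, 20.8 against 18.3 in lung CD44high and 21.2 against 15.8 in LN CD44high. In lung CD44low the CCT subunits (25.4 against 19.9) and smooth muscle markers (86.3 against 71.4) were also higher outside the kept cells, and fibroblast markers (5.97 against 21.4) were lower there.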
